A study of Homo sapiens with 9 samples.

Results

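Chromatin accessibility was compared between the 6 libraries of prostate cancer cells kept with enzalutamide and the 3 libraries of VCaP cells kept with DMSO, the drug's solvent, out of 9 ATAC-seq libraries in all. The drug-exposed libraries were 3 of VCaP treated with 10 µM enzalutamide for 96 h (VCaP_ENZ) and 3 of VCaP16, an enzalutamide-resistant VCaP derivative grown in 16 µM enzalutamide, for which the labels give no treatment time. The series title places the study in the passage of castration-resistant prostate cancer to dependence on androgen receptor splice variants, and the comparison sets both enzalutamide-exposed groups together against the same DMSO libraries. Peaks of the 9 lists were merged, and a region was a member if 2 or more of the 3 libraries of any group called it, which held for 66108 of 94773 merged regions, and 33033 of them (50.0%) were called in all 9 libraries. VCaP16 is a separate line with no drug-free libraries here, so drug and line cannot be told apart in it, and dose and duration differ between the drug-exposed groups. Whether the replicates were grown separately is not in the labels, and the spread that the tests use may be only technical.

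Enzalutamide is an androgen receptor antagonist that binds the receptor's ligand-binding domain. VCaP is a prostate cancer line known for its amplified androgen receptor gene, for receptor splice variants that lack that domain and for the TMPRSS2-ERG fusion. In ATAC-seq the Tn5 transposase inserts adapters into DNA that nucleosomes leave exposed, so a stretch with many insertions is called as a peak. In a bulk library, a site open in more cells and a site more open in each cell cannot be told apart. The identity of the cells was not checked against marker genes, because no annotation of the build of the peak lists, hg19, was used here, and regions are therefore given by hg19 position (chromosome, first and last base) without a gene or sequence.

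Peak numbers were 57677, 54757 and 53799 in VCaP_DMSO, 54033, 61744 and 53646 in VCaP_ENZ, and 57894, 57315 and 68921 in VCaP16, and the depth behind them is unknown, since the lists hold no read counts. The drug-exposed libraries had 58926 ± 5715 peaks (SD, n = 6) and the DMSO libraries 55411 ± 2020 (SD, n = 3), a difference of 3514.5 within the spread (two-sided exact permutation test over 84 assignments, p = 0.429, where 0.0119 is the smallest possible). Covered length was 29.8 ± 4.01 Mb against 28.6 ± 2.03 Mb (exact permutation p = 0.714), mean peak width 504 ± 20.3 bp against 516 ± 18.5 bp (exact permutation p = 0.405), and the share of consensus regions called 80.3% ± 5.39 against 76.7% ± 2.40 (exact permutation p = 0.321; n = 6 and 3 throughout). These 4 raw p-values were all far above 0.05, and the ranges of the groups overlapped for each measure.

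A small set of regions was called in every library of one side and in none of the other. Called in 6 of 6 drug-exposed and 0 of 3 DMSO libraries were 214 regions (0.324% of the consensus), and in 0 of 6 and 3 of 3 were 152 (0.23%). These were mostly weak peaks: among all consensus regions that a library called, with 100 the highest score, their median rank percentiles were 25.9 and 21.2. Their median widths were 536.5 and 409 bp, below the 639 bp of all consensus regions. By Fisher's exact test of calls, 1187 regions had an unadjusted p below 0.05, and none passed Benjamini-Hochberg adjustment over 66108 regions, for which the smallest adjusted p was 1. With 6 against 3 libraries no region can have a p below 0.0119, so adjustment over this many regions could hardly be passed, and the test does not bear on single regions. The exclusive regions also entered the consensus only through the side that called them. Which direction was more frequent was not stable. There were 154 drug-exposed-only and 235 DMSO-only regions with lists of equal length. They numbered 171 and 178 when a library's peaks had to cover at least 50% of the merged region. Without VCaP16 replicate 3 there were 233 and 249, and without VCaP_DMSO replicate 3 there were 385 and 399. Leaving out VCaP_DMSO replicate 1 gave 533 and 333, and leaving out VCaP_DMSO replicate 2 gave 387 and 374. The counts also moved by more than 1.5 times without VCaP_ENZ replicate 1 (347 drug-exposed-only), replicate 2 (229 DMSO-only) or replicate 3 (362 drug-exposed-only).

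**Figure D1:**
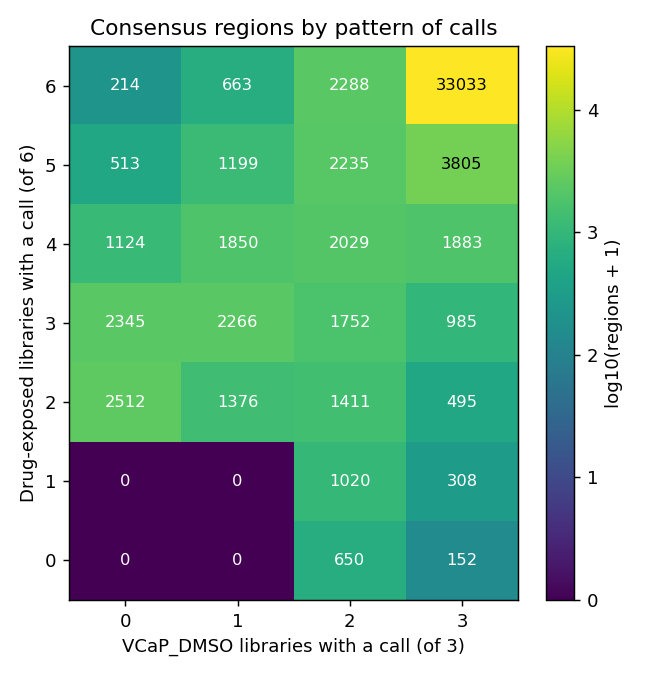
Number of consensus regions by the number of drug-exposed libraries (vertical axis, of 6) and of VCaP_DMSO libraries (horizontal axis, of 3) that called them, with colour on a log10 scale. The corner of all 9 libraries held 33033 regions and the opposed corners 214 and 152; the 4 empty cells at the lower left follow from the consensus rule.

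The regions below are those with the best median rank in each direction, so their strength was what chose them, and their values are a description. The authors' score of a peak was read as the −log10 of its p or q. The leading drug-exposed-only region, chr6:88494383-88494869, scored 12.6, 25.3 and 11.2 in VCaP_ENZ and 19.2, 33.2 and 24.3 in VCaP16, with no peak in the 3 DMSO libraries. At chr7:120195064-120195473 the scores were 19.2, 27.6 and 11.6 in VCaP_ENZ and 12.6, 19.3 and 35.8 in VCaP16. At chr11:71075193-71075791 they were 4.33, 14.1 and 11.7 in VCaP_ENZ and 25, 29.3 and 28.6 in VCaP16. At chr9:11223-11723, near the end of the chromosome arm, they were 12.8, 17.0 and 13.5 in VCaP_ENZ and 27.6, 22.4 and 22 in VCaP16. That region lay only 258 bp from a region called in all 9 libraries, and whether the 2 are parts of 1 site was not tested. Scores depend on a library's depth, so the levels of the 2 groups were not compared at these sites.

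The other named drug-exposed-only regions were chr7:46825616-46826341, chr20:44258220-44258693, chr4:78229923-78230432, chr12:49262814-49263435, chr1:154884126-154884765 and chr5:35370510-35370810, with median scores of 15 to 18.2. Of the 10, all kept their pattern with lists of equal length and with windows around peak midpoints, and 9 with a minimum score of 5. Only 3 kept it when a library's peaks had to cover at least 50% of the merged region: those on chromosomes 6, 11 and 5. At the others a drug-exposed peak was too short for this rule, and the DMSO libraries still had no peak.

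Among the DMSO-only regions, chr3:161304499-161305074 scored 28.3, 18.4 and 25.8 in the 3 DMSO libraries and had no peak in the 6 drug-exposed libraries. At chr5:57994823-57995615 the DMSO scores were 30.1, 15.1 and 21.8, and at chr3:2911538-2912096 they were 22.4, 30 and 19.6. These 3 stood above the other 7, whose median scores were 14.1 to 18.7. The 7 were chr18:60168190-60168666, chr18:2851885-2852093, chr4:54699909-54700462, chr20:52486302-52486969, chr11:95081998-95082309, chr12:66449779-66450045 and chr17:74639702-74640052. All 10 kept their pattern with equal-length lists, midpoint windows and a minimum score of 5. When a library's peaks had to cover at least 50% of the merged region 8 kept it, the exceptions being chr18:60168190-60168666 and chr20:52486302-52486969.

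The strength of peaks that every library called was compared next. To set scores from libraries of different depth side by side, the 33033 regions called in all 9 libraries were ranked by score within each library, as a percentile (100 the highest), and the ranks were turned into normal scores (quantiles of a standard normal distribution) for limma with a mean-variance trend. At a Benjamini-Hochberg adjusted p below 0.05, 397 regions (1.2%) ranked higher in the drug-exposed libraries and 158 (0.478%) ranked lower, and 4447 had an unadjusted p below 0.05. In the 397 the median of the DMSO means was the 28.7 percentile and that of the drug-exposed means the 66.7, with a median difference of 30.4 points. In the 158 the medians were 76.1 and 38.7, with a median difference of −32.8 points. Ranks are relative within a library, so a region can lose rank because others gain it. The counts depended on the settings: without the mean-variance trend limma called 48 and 15 regions, on percentiles in place of normal scores 107 and 43, with the 6 libraries as 1 group 219 and 71, and without the longest list of each group, which leaves 6 libraries, 115 and 49. Without VCaP_DMSO replicate 1, 2 or 3, the lower regions numbered 77, 61 and 50, and the higher ones 263, 239 and 266. The counts moved less with equal-length lists (401 higher and 156 lower), a minimum score of 5 (376 and 141) and midpoint windows (378 and 158). With each library's median score (log2) as a covariate they were 360 and 145, and 498 of the 555 main calls were called again.

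**Figure D2:**
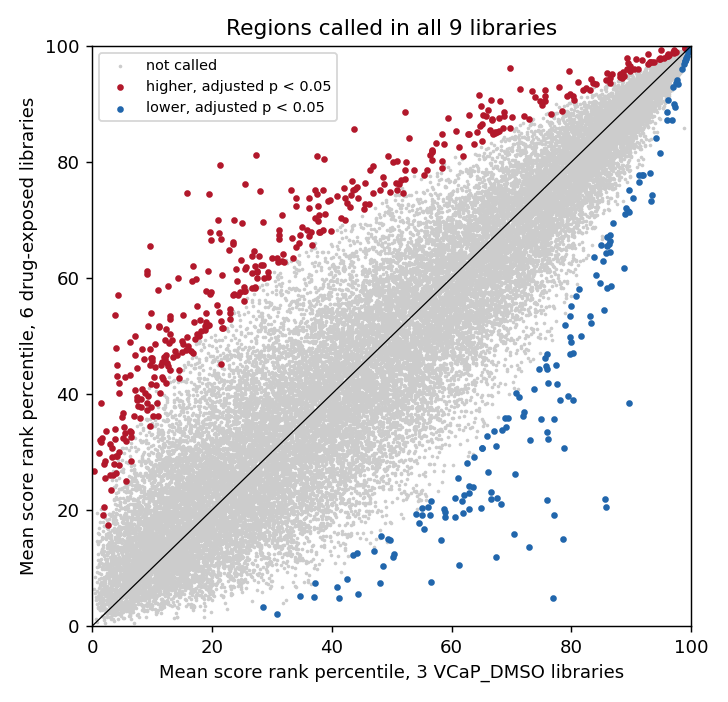
Mean score rank percentile of each of the 33033 regions called in all 9 libraries, in the 3 VCaP_DMSO libraries (horizontal) and the 6 drug-exposed libraries (vertical), with the diagonal marking equal ranks. The 397 higher regions (red) and 158 lower regions (blue) lie on the outer edges of the cloud along most of its length.

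All 6 drug-exposed libraries ranked a region above all 3 DMSO libraries at 1004 regions (3.04%) and below them at 843 (2.55%). Of the regions that passed the test, 291 of 397 and 120 of 158 had no overlap between the 6 and the 3 libraries. The higher regions had a median width of 772 bp and the lower regions of 793 bp, against 838 bp for all 33033. In 5 bins of mean rank with equal numbers of regions, the share called higher was 0.394% in the weakest bin and 1.32% to 1.47% in the other 4, and the share called lower was 0.197% in the weakest and 0.484% to 0.621% in the others. Of the 397, 367 had no other higher region within 100000 bp, and the largest group linked at that distance held 3. Of the 158, 156 stood alone.

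The 10 named regions of higher rank had the largest percentile differences among those that passed and did not overlap, so their separation is fixed by the choice. The largest difference was at chr1:160101697-160102267. Its scores were 11.8, 9.63 and 9.69 in DMSO, 28.9, 20.4 and 19 in VCaP_ENZ, and 53.3, 60.5 and 86 in VCaP16. In ranks, DMSO lay at 15.5, 15.8 and 16.4, VCaP_ENZ at 73.1, 40.9 and 54, and VCaP16 at 92.3, 93.7 and 94.4. The 3 groups formed 3 separate levels, with VCaP_ENZ the most spread. The 6 libraries averaged 74.7 ± 22.9 (SD, n = 6) and the DMSO libraries 15.9 ± 0.493 (SD, n = 3). The difference was 58.8 points (limma, normal score difference 1.84, SE 0.21, adjusted p = 2.84e-08). The limma fit used 3 group means, here and at the regions below. Its SE thus leaves out the gap between VCaP_ENZ and VCaP16, which the SD of the 6 libraries holds.

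At chr7:47221385-47221968 the ranks were 16.5, 28.7 and 18.6 in DMSO, 72.3, 79.8 and 76.3 in VCaP_ENZ, and 85.3, 84.5 and 78 in VCaP16. Here both drug-exposed groups were close to each other, and the difference from DMSO was 58.1 points (limma adjusted p = 1.39e-07). At chr2:206502240-206502976 the ranks were 30.7, 32.1 and 14 in DMSO, 69.9, 78 and 64.5 in VCaP_ENZ, and 76.5, 87.9 and 80.6 in VCaP16. The ranges of both drug-exposed groups overlapped at this site as well, 50.7 points above DMSO (limma adjusted p = 7.2e-06).

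The region chr9:68425969-68426941 was of another kind. Its ranks were 21.1, 1.85 and 5.89 in DMSO, 21.8, 44.4 and 32.1 in VCaP_ENZ, and 98, 98.4 and 98.2 in VCaP16. The VCaP_ENZ ranks started just above the highest DMSO rank, and the VCaP16 ranks were near the top of the library. The pooled difference of 55.9 points (limma adjusted p = 9.15e-10) therefore averaged 2 unlike groups, and for VCaP_ENZ alone the difference from DMSO did not pass (limma adjusted p = 0.0657). The site lies near the centromere, a part of chromosome 9 known for segmental duplications, and the treatment of reads with several matches was not known here.

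At chr3:73853252-73853967 the ranks were 1.68, 8.1 and 3.11 in DMSO, 19.1, 28.5 and 48 in VCaP_ENZ, and 88, 80.4 and 77.9 in VCaP16. The groups again formed 3 levels, with a pooled difference of 52.7 points (limma adjusted p = 1.75e-06). At chr12:94337342-94337934 the ranks were 29.8, 3.13 and 25.8, then 56.8, 70.1 and 64.8, then 83.1, 84.9 and 87.4 in the same order of groups. The difference was 54.9 points (limma adjusted p = 1.17e-06), and the low rank of VCaP_DMSO replicate 2 widened it.

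The other 4 named higher regions, chr19:18617739-18618338, chr19:17097086-17097686, chr12:107742578-107743191 and chr6:170430533-170431242, differed from DMSO by 49.7 to 53.7 points. At chr12:107742578-107743191 the VCaP_ENZ ranks were uneven, at 30.6, 28.7 and 74.2, and at chr6:170430533-170431242 they were 16.3, 37.9 and 44.6. At chr19:17097086-17097686 the VCaP_ENZ ranks of 33.8, 70.3 and 50.9 overlapped the VCaP16 ranks of 60.9, 83.6 and 67.5. Without the trend, chr12:107742578-107743191 (limma adjusted p = 0.0544, and 0.0545 on percentiles) and chr19:17097086-17097686 (limma adjusted p = 0.0688) no longer passed.

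**Figure D3:**
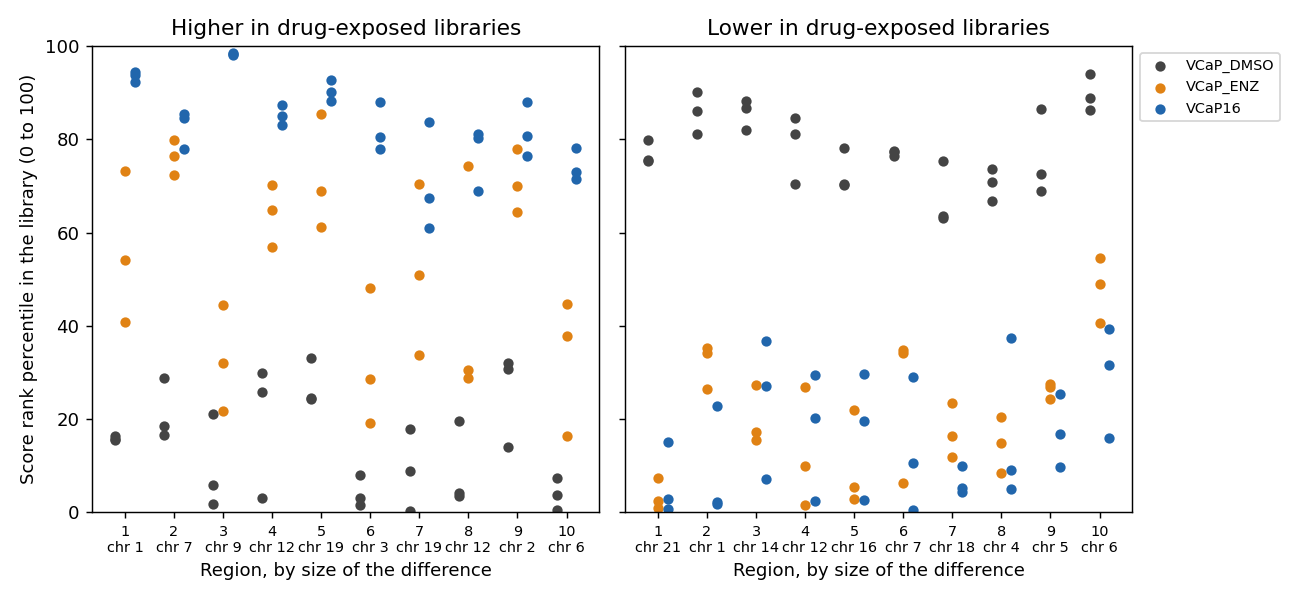
Score rank percentile in each library (points) of the 10 named regions ranked higher (left) and the 10 ranked lower (right) in drug-exposed libraries, in order of the difference and marked by chromosome. VCaP16 lay above VCaP_ENZ without overlap at several higher regions, such as the first (92.3 to 94.4 against 40.9 to 73.1), while at the first lower region both drug-exposed groups lay at 15 or below and DMSO at 75.3 to 79.9.

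The lower regions included the largest difference in mean percentile of all 33033 regions. At chr21:28526951-28528004 the scores were 40.2, 34.1 and 37 in DMSO, 6.92, 5.47 and 5.02 in VCaP_ENZ, and 3.78, 9.79 and 7.57 in VCaP16. The ranks were 75.3, 75.5 and 79.9, then 7.34, 1.01 and 2.5, then 0.737, 15 and 2.97. Both drug-exposed groups lay at the bottom of the ranking, at 4.92 ± 5.46 (SD, n = 6) against 76.9 ± 2.59 (SD, n = 3), and overlapped each other. The difference was −72 points (limma, normal score difference −2.59, SE 0.34, adjusted p = 4.16e-07). The called length there was 968, 1048 and 912 bp in DMSO, 411, 319 and 360 bp in VCaP_ENZ, and 224, 578 and 828 bp in VCaP16. Every drug-exposed library called a shorter peak than any DMSO library, but the difference in length did not pass (log2 difference −1.24, SE 0.31, limma adjusted p = 0.389).

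At chr1:217075995-217076573 the ranks were 90.1, 86.1 and 81.1 in DMSO, 35.3, 34.2 and 26.5 in VCaP_ENZ, and 1.89, 2.18 and 22.7 in VCaP16. VCaP16 lay below VCaP_ENZ in every library, and the pooled difference was −65.3 points (limma adjusted p = 3.86e-07). At chr14:101971624-101972378 the ranks were 86.6, 88.2 and 81.9, then 17.2, 27.4 and 15.5, then 7.2, 36.7 and 27.1 in the same order. Both drug-exposed groups overlapped, and the difference was −63.7 points (limma adjusted p = 1.05e-06).

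At chr6:43894538-43895306 the ranks were 86.3, 88.9 and 93.9 in DMSO, 49, 40.5 and 54.5 in VCaP_ENZ, and 15.9, 39.4 and 31.5 in VCaP16. This region kept a middle rank in VCaP_ENZ, unlike the first lower region, and all VCaP16 ranks lay below it. The difference was −51.2 points (limma adjusted p = 7.14e-07). The remaining 6 were chr12:111505078-111505811, chr16:72057768-72058207, chr7:5625834-5626504, chr18:13826301-13826896, chr4:75869294-75869791 and chr5:126533014-126533734. Their differences ran from −63.6 to −54.2 points, and their limma adjusted p from 1.47e-05 to 0.000401. Without the trend 4 of the 6 no longer passed: chr12:111505078-111505811 (limma adjusted p = 0.0629), chr16:72057768-72058207 (0.0544), chr7:5625834-5626504 (0.089) and chr4:75869294-75869791 (0.0504, and 0.0533 without the longest list of each group). At chr12:111505078-111505811 the drug-exposed ranks ranged from 1.56 to 29.4, and at chr5:126533014-126533734 from 9.76 to 27.6.

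Both drug-exposed groups were then set against the same 3 DMSO libraries, so the contrasts share their controls and are given side by side. VCaP_ENZ differed from DMSO at 174 regions (0.527%), VCaP16 from DMSO at 939 (2.84%), and VCaP16 from VCaP_ENZ at 395 (1.2%), each with limma in either direction. In the 397 higher regions the median normal score difference from DMSO was 0.81 for VCaP_ENZ and 1.09 for VCaP16, and in the 158 lower regions −0.87 and −1.09. The direct test of VCaP16 against VCaP_ENZ passed at 29 of the 397 (7.3%), with VCaP16 higher at 28 of them, and at 14 of the 158 (8.86%), with VCaP16 lower at 13. At most of the 555 regions a difference between the drug-exposed groups was not shown, which does not make them equal.

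Among the 20 named regions VCaP16 and VCaP_ENZ differed at 3, all of higher rank. The normal score of VCaP16 minus VCaP_ENZ was 1.35 at chr1:160101697-160102267 (SE 0.25, limma adjusted p = 0.000853), 2.56 at chr9:68425969-68426941 (SE 0.28, limma adjusted p = 7.57e-09) and 1.43 at chr3:73853252-73853967 (SE 0.32, limma adjusted p = 0.0105). At chr1:217075995-217076573, the nearest among the lower regions, it was −1.15 (SE 0.32, limma adjusted p = 0.0525). The first lower region, chr21:28526951-28528004, had a difference of 0.12 (SE 0.39, limma adjusted p = 0.931) between the drug-exposed groups.

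**Figure D4:**
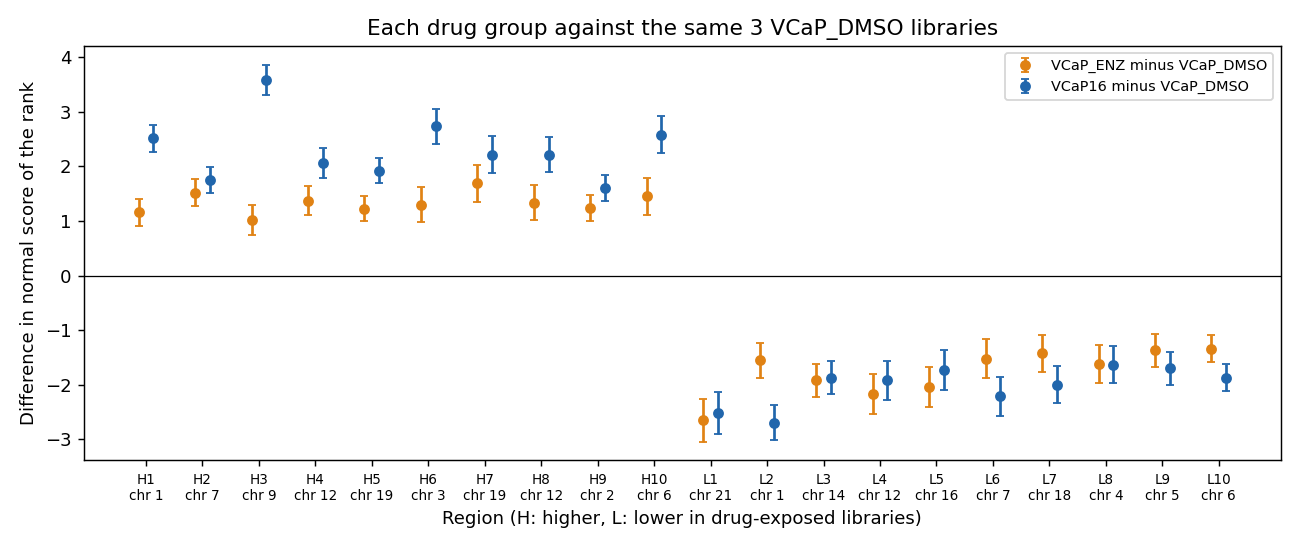
Difference in normal score of the rank from VCaP_DMSO (points, with bars of 1 SE) for VCaP_ENZ and VCaP16 at the 10 named higher (H) and 10 named lower (L) regions. VCaP16 lay farthest from VCaP_ENZ at H3, the chromosome 9 region (3.58 against 1.02), and the values were close at L1, the chromosome 21 region (−2.52 against −2.65).

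Over all 33033 regions the libraries' ranks were on average more alike within groups than between them. Spearman's correlation across regions, given as a description, averaged 0.866 over the 3 pairs of DMSO libraries (0.859 to 0.872), 0.852 within VCaP_ENZ (0.848 to 0.856) and 0.868 within VCaP16 (0.856 to 0.874). Between groups it averaged 0.833 for DMSO with VCaP_ENZ, 0.821 for DMSO with VCaP16 and 0.829 for VCaP_ENZ with VCaP16 (9 pairs each). The ranges of the between-group correlations overlapped, at 0.810 to 0.852, 0.803 to 0.839 and 0.819 to 0.843, and the highest pair of DMSO with VCaP_ENZ reached the range within VCaP_ENZ. In the ranking as a whole, then, the average for the pair of drug-exposed groups lay between the averages for each of them with DMSO.

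The mean rank of a whole chromosome's regions also differed between the 6 and the 3 libraries, by a small amount, a result chosen after the data were seen. Of 23 chromosomes, 7 passed at a Benjamini-Hochberg adjusted exact permutation p of 0.0391, each with all 6 drug-exposed libraries on one side and a raw p of 0.0119, the smallest possible. The mean percentile of chromosome 21 (626 regions) was 53.2, 53.7 and 53.5 in DMSO, 55.8, 55.1 and 56.1 in VCaP_ENZ, and 55.6, 56.9 and 55.2 in VCaP16, a rise of 2.3 points. The library with the longest list of each group had the lowest value of its group there (53.2, 55.1 and 55.2). A relation of list length or depth to these values was not tested. Chromosome 8 was higher by 1.73 points, chromosome 4 by 1.1 and chromosome 7 by 0.966.

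Lower were chromosome 16 by −2.27 points, chromosome 19 by −2.22 and chromosome 1 by −0.524. On chromosome 19 the means were 55.6, 56.4 and 55.8 in DMSO, 53.5, 53.5 and 53.2 in VCaP_ENZ, and 54.3, 54.4 and 53.2 in VCaP16. Each library's ranks average the same over the genome, so higher chromosomes must be offset by lower ones. For chromosome 1 the result was lost with a minimum score of 5 (−0.538, adjusted exact permutation p = 0.0608) and with midpoint windows (−0.501, adjusted exact permutation p = 0.0685). The share of regions called higher was 3.83% on chromosome 21 (24 of 626) and 2.44% on chromosome 8 (41 of 1680), beside 1.2% over all regions and 0.363% on chromosome 16 (3 of 827). Stretches of 5 Mb with at least 20 regions numbered 516. Of these, the stretch at 110 to 115 Mb of chromosome 13 held the most higher regions, 10 of 119, beside 2 lower. Its median normal score difference from DMSO was 0.07 for VCaP_ENZ and 0.16 for VCaP16. VCaP16 minus VCaP_ENZ passed at some of the 10, such as chr13:110161719-110162907 (0.61, limma adjusted p = 7.06e-05). It did not at others, such as chr13:111193234-111194229 (0.22, limma adjusted p = 0.508). A larger share, 5 of 50, ranked higher at 65 to 70 Mb of chromosome X. That stretch held chrX:66324778-66325896, with a mean percentile of 96.2 against 69.8 in DMSO (limma adjusted p = 5.91e-12). The drug-exposed groups were unlike there, with normal score differences from DMSO of 1.01 for VCaP_ENZ and 1.93 for VCaP16. VCaP16 minus VCaP_ENZ was 0.91 (limma adjusted p = 0.000205). The median normal score difference of a stretch ran from −0.18 to 0.19.

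**Figure D5:**
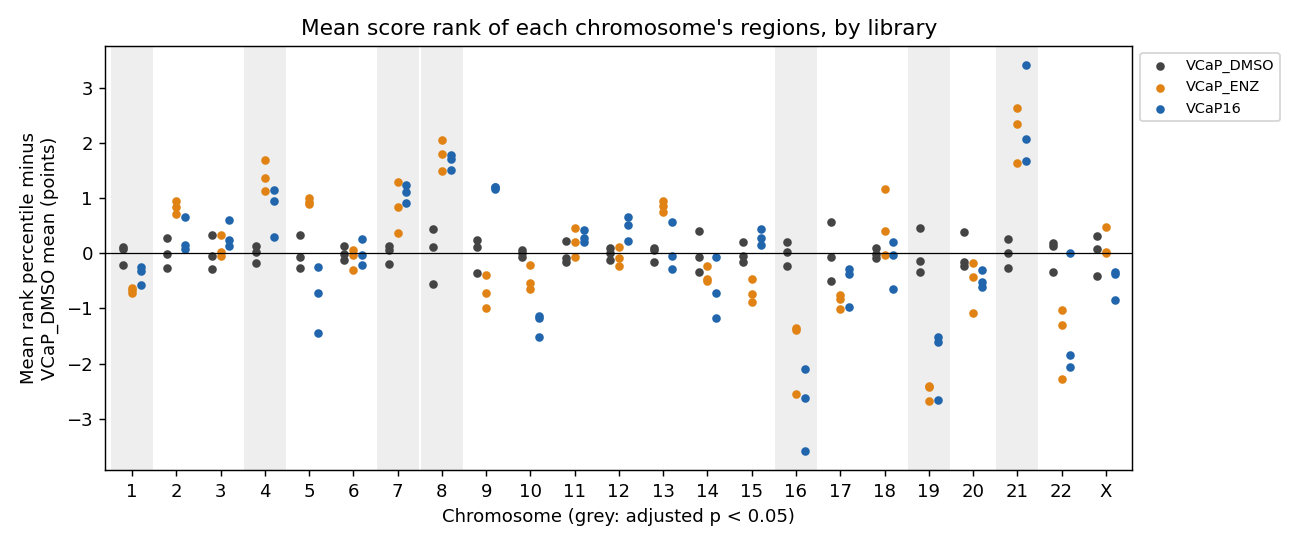
Mean score rank percentile of the regions of each chromosome in each library (points), minus the mean of the 3 VCaP_DMSO libraries, with grey bands on the 7 chromosomes that passed adjustment over 23. On chromosome 21 all 6 drug-exposed libraries lay above the DMSO libraries (difference 2.3 points) and on chromosomes 16 and 19 below them (−2.27 and −2.22 points).

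The length of a region that a library called was tested as another measure of the same peaks. No region passed in either direction (0% greater and 0% smaller; limma on log2 called length, smallest adjusted p = 0.152), while 2456 had an unadjusted p below 0.05. The leading regions had the smallest p in each direction, so the choice favours libraries that separate, and their values are a description. The largest of the leading differences was at chr7:147781070-147781890, with called lengths of 248, 229 and 184 bp in DMSO, 667, 798 and 432 bp in VCaP_ENZ, and 821, 612 and 757 bp in VCaP16. Every drug-exposed library called a longer stretch there than any DMSO library, and the drug-exposed groups overlapped each other (log2 difference 1.60, SE 0.20, limma adjusted p = 0.152). In the other direction, chr6:53675703-53676753 had 951, 871 and 833 bp in DMSO, 367, 449 and 372 bp in VCaP_ENZ, and 573, 489 and 459 bp in VCaP16. Again no drug-exposed library reached the DMSO range (log2 difference −0.99, SE 0.15, limma adjusted p = 0.176).

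The other leading regions by called length, none of which passed, were chr2:124805490-124806889, chr4:57377230-57377837, chr11:14587983-14589003 and chr10:1729425-1730172, longer in the drug-exposed libraries by 1.22 to 1.43 on the log2 scale. Shorter were chr9:92218017-92219410, chr10:43633058-43634628, chr1:1677196-1678774 and chr11:128323301-128324311, with log2 differences of −0.80 to −0.57. Score and called length come from the same peak and are not independent: the called length was greater in the drug-exposed libraries at 336 of the 397 regions of higher rank and smaller at 147 of the 158 of lower rank, beside 46.8% greater over all 33033. Median log2 differences were 0.24, −0.23 and −0.01 in these sets.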

How the data were processed

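The authors deposited 1 peak list per library, called separately, with chromosome, start, end, name and score. The score that the authors deposited was read as −log10 of p or q, because no list held a value under 2; no source used here names it. Per the submitters' processing notes, the tools were MACS2 2.2.7.1, HOMER 3.12 and BWA 0.7.15-r1140 on build hg19, with no roles given; read filters and any Tn5 shift are not given in the sources used here. Per the labels' protocols, bulk cells were crosslinked with formaldehyde; the text also describes a single-cell preparation, and the lists were treated as bulk. A deeper library gives more peaks and higher scores, so differences in score were tested only on ranks within a library.

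On chromosomes 1 to 22 and X, peaks sharing 1 bp or more were merged, and a library called a region if it had a peak there; its highest score was used. Library values were compared with exact permutation tests, calls with Fisher's exact test, and normal scores of ranks and log2 called lengths (after subtracting the library's median) with limma 3.58.1 with trend in R 4.3.3, with 3 group means and the average of both drug-exposed groups against DMSO. Other work used Python 3.11.15 and scipy 1.17.1. Adjustment was by Benjamini-Hochberg. The rank fit was tested on simulated data with 33033 regions. It recovered 36 of 100 regions shifted by 1 normal score unit and 87 of 100 shifted by 2, with 1 other region called. Whether the simulated noise was like that of the libraries was not tested. These numbers therefore hold for the simulated data only and do not give the share of false calls among the regions called in the libraries.

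Named regions were, per direction, the 10 with the best median rank among exclusive calls, the 10 with the largest percentile difference among those that passed and did not overlap, and for called length the 5 by log2 difference, or by smallest p where none passed. Members and lists were chosen with earlier results of these data known. Chromosome means, 5 Mb stretches, linked regions, the median score as a covariate and leaving out the longest list of each group were added after the data were seen. Gene lists and motifs that had been planned were not run, as no reference on the lists' build was used here.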

Additional observations from a re-analysis of the deposited data

Results flagged for a closer look

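Both drug-exposed groups differed from each other in the contrast with DMSO at 3 named regions, by limma's direct test of VCaP16 minus VCaP_ENZ in normal scores of the rank. The value was 1.35 at chr1:160101697-160102267, where the mean percentile was 56 in VCaP_ENZ and 93.5 in VCaP16. It was 2.56 at chr9:68425969-68426941, with 32.8 and 98.2. It was 1.43 at chr3:73853252-73853967, with 31.9 and 82.1. At all 3, every VCaP16 library ranked above every VCaP_ENZ library.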

How the results depend on the processing

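Of 626 recomputed values, 572 had the same direction and the same call, or stayed within the tolerance for a value or a count; the cause of the changes below was not tested unless stated. For the named regions' score ranks this was 362 of 370, and the other 8 kept their direction and lost the call. Covered length changed sign with VCaP_ENZ alone against DMSO (−0.327 Mb) and ranged from −0.164 to 2.23 Mb when 1 library was left out, and mean peak width changed sign with equal-length lists (1.93 bp), all without a test passing. Drug-exposed-only calls numbered 727 with at least 5 of 6 libraries, 709 without the longest list of each group and 233 to 533 when 1 library was left out; fewer libraries to satisfy admit more regions. DMSO-only calls numbered 460 with at most 1 of 6, 235 with equal-length lists, 835 without the longest lists and 176 to 399 when 1 library was left out. Regions of higher rank numbered 219 with 2 groups, 48 without the trend, 107 on percentiles, 115 without the longest lists and 239 to 351 when 1 library was left out; regions of lower rank numbered 71, 15, 43, 49 and 50 to 163. A similar count need not hold the same regions. With regions called in at least 5 of 9 libraries, 340 ranked higher and 143 lower, and 254 of the 555 main calls were called again. Without the trend 59 of the 555 were called again, and on percentiles 141. Greater and smaller called length each gave 0 to 1 regions when 1 library was left out. The chromosome 1 difference was −0.501 with midpoint windows and −0.538 with a minimum score of 5, both no longer past the threshold.

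With the replicate number as a block, 437 regions ranked higher and 188 lower. Same-numbered libraries of different groups correlated by −0.006 to 0.045 in their deviations from the group means, and none of 9 pairs was over 0.1. Pairs with other numbers correlated by −0.034 to 0.017, and 4 of 9 libraries were closest to their own number. Between VCaP_DMSO and VCaP_ENZ each library correlated most with its own number (0.011, 0.045 and 0.023). The same-numbered pairs with VCaP16 lay at −0.006 to 0.002. Whether same-numbered libraries were handled together was not tested. Exact permutation of the library values within replicate numbers (27 assignments) gave p = 0.481 for peak number, 0.778 for covered length, 0.481 for mean width and 0.444 for the share of consensus regions called. Depth is unknown, and a region without a call may be open below the caller's limit.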
